A study of Mus musculus with 18 samples.

Results

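Nucleic acid sensors and their adaptors are the proteins with which a cell detects DNA in its cytosol or double-stranded RNA and passes that signal on to interferon production. The 10 genes described here, of 35275 in the count table, were found in it by gene name, from a list made with earlier results of these data known. They are the DNA sensor *Cgas* with its adaptor *Tmem173*, which encodes STING, and the Z-form nucleic acid sensor *Zbp1*. The RNA sensors are *Ddx58*, which encodes RIG-I, *Ifih1*, which encodes MDA5, and *Tlr3*, and their adaptor, for RIG-I and MDA5, is *Mavs*. The kinase *Tbk1* and the transcription factors *Irf3* and *Irf7* complete the set. *Cgas* is listed in the table under its older symbol *Mb21d1*.

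The RNA-seq libraries came from malignant peripheral nerve sheath tumor (MPNST) cell lines, and the comparison addresses how the transcriptome differs when *Nf1* is lost together with p53 or together with *Cdkn2a*. Wild-type 129 Sv/Jae mice were injected in the sciatic nerve with an adenovirus that carries Cas9 under the CMV promoter and guide RNAs, and each line was grown from 1 tumor and passaged in DMEM with fetal bovine serum and without treatment. The *Nf1*/p53 double knockout (dKO) group had guides against *Nf1* and *Trp53* and the *Nf1*/*Cdkn2a* dKO group had guides against *Nf1* and *Cdkn2a*, and neither group is an unedited control. Both share the targeting of *Nf1*, the virus and Cas9. There were 3 lines per genotype and 3 cultures per line, 18 libraries in all. Because such cultures come from the same tumor, their counts were summed and the line was the replicate (n = 3 per genotype).

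In this system, cGAS makes a cyclic dinucleotide when it binds DNA, and that messenger activates STING, while RIG-I and MDA5 bind viral or self double-stranded RNA and act through MAVS on mitochondria. Both routes meet at the kinase TBK1, which phosphorylates IRF3, and IRF3 and IRF7 then switch on type I interferon genes. Interferon in turn raises the transcripts of several of the sensors, so that *Cgas*, *Zbp1*, *Ddx58*, *Ifih1*, *Tlr3* and *Irf7* are also known as interferon-stimulated genes, whereas *Tmem173*, *Mavs*, *Tbk1* and *Irf3* are better known as constitutive parts of the route.

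Interferon acts on many promoters through the interferon-stimulated response element (ISRE), which IRF family factors bind. RefSeq promoters of the build GRCm38.p6, from 250 bases before to 50 bases after the gene start, were given for 8 of the 10 members and were searched on both strands for the ISRE core GAAANNGAAA. *Ddx58* and *Ifih1* each held 1 match, and *Cgas*, *Tlr3*, *Mavs*, *Tbk1*, *Irf3* and *Irf7* held none in this window. The core occurred in 3.44% of the 32851 promoters given and in 3.99% of the 27025 genes they belong to. The 30 bases around both matches are shown because both RNA sensors had lower levels in the *Nf1*/*Cdkn2a* dKO, with the match in capitals, read 5′ to 3′ on the strand of the gene (the minus strand for both).
Ddx58 (chr4:40239804-40239833): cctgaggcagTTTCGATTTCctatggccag
Ifih1 (chr2:62646206-62646235): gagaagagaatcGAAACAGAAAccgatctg
The *Ddx58* match reads on the opposite strand and spans bases 3 to 12 after the start, and the *Ifih1* match reads on the strand of the gene and spans bases 33 to 42. A match is a run of letters and was not measured as a binding site.

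Total counts per library were 19560535 to 28312207, and 65206479 to 73065228 per summed line, so that all 10 members passed the filter on low counts that left 15207 genes for the test. *Trp53* had 94.1, 67.5 and 58.7 CPM in *Nf1*/*p53* dKO lines 1 to 3 and 247, 246 and 185 CPM in *Nf1*/*Cdkn2a* dKO lines 1 to 3 (log2 fold change 1.62, adjusted p = 0.0361, edgeR). With 1 line left out that adjusted p ran from 0.0436, without *Nf1*/*p53* dKO line 1, to 0.124. *Cdkn2a* had 363, 279 and 42.9 CPM against 169, 392 and 285 CPM and was thus not lower in the lines labelled *Nf1*/*Cdkn2a* dKO. *Nf1*, targeted in both, had 70, 33.5 and 27.7 against 12.7, 38.3 and 16.2 CPM. Gene counts do not read the sequence at the guide targets. Fewer cells of a type and less RNA per cell cannot be told apart in bulk libraries. Of 10 leukocyte markers, *Adgre1*, *Aif1*, *Tyrobp* and *Cd3e* had 3 counts or fewer in every line, *Cd68* had 1.96 to 7.14 CPM and *Csf1r* 0.721 to 3.17 CPM. The summed level of the list was 3.87 to 7.6 CPM (*Nf1*/*p53* dKO) against 6.63 to 8.13 CPM (*Nf1*/*Cdkn2a* dKO). The 6 dendritic cell markers summed to 2.31 to 4.14 against 3.89 to 5.52 CPM, which overlap. Of these, *Itgax* had 0.116, 0.354 and 0.0277 against 3.03, 1.04 and 1.94 CPM, and *Xcr1* was also higher without overlap. *Flt3* had 0.735, 1.03 and 0.0277 against 0.112, 0.447 and 0.0469 CPM. The genotypes overlapped for *Flt3*, *Clec9a* and *Zbtb46*, and *Siglech* had no count in any line. Summed levels were, for the 6 endothelial markers, 1.37 to 2.09 against 0.704 to 2.13 CPM and, for the markers of the Schwann cell, the glial cell of the nerve sheath (6 genes), 2.92 to 7.23 against 1.32 to 2.47 CPM, with *Sox10* at 0.099 CPM or less in every line. The 8 mesenchymal markers, for the cell type that the labels give, summed to 7470 to 17200 against 10500 to 17400 CPM, which overlap. Within this list *Vim* had 6120, 5400 and 4730 against 10200, 7210 and 9850 CPM, and *Prrx1* and *Twist1* were also higher without overlap. The genotypes overlapped for *Col1a1*, *Col1a2*, *Col3a1*, *Pdgfra* and *Pdgfrb*. The part of these cell types in the differences below was not tested.

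Levels are given as CPM, the reads of a gene scaled to library size with TMM factors, and per kilobase of annotated exon only where genes are compared with each other. Values always follow the order of lines 1, 2 and 3, and a log2 fold change above 0 means more RNA in the *Nf1*/*Cdkn2a* dKO. In CPM per kilobase, the adaptors and the kinase were the most abundant members: *Mavs* came first with a mean of 16.9 (*Nf1*/*p53* dKO) and 18.9 (*Nf1*/*Cdkn2a* dKO), above 79.9% and 81.2% of the genes tested. *Tmem173* followed with 13.1 and 13.4 CPM per kilobase, and *Tbk1* with 10.7 and 13.1, and this order was the same in both genotypes. The sensors were less abundant, at 5.76 and 2.72 CPM per kilobase for *Ddx58*, 4.87 and 3.2 for *Cgas*, 1.67 and 0.296 for *Ifih1* and 1.03 and 1.46 for *Tlr3*. *Zbp1* was the lowest member in the *Nf1*/*Cdkn2a* dKO with 0.124 CPM per kilobase, above 10.8% of genes, against 1.12 in the *Nf1*/*p53* dKO, above 30% of genes.

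Across the genotypes, *Zbp1*, *Ifih1* and *Ddx58* were lower in all 3 *Nf1*/*Cdkn2a* dKO lines than in any *Nf1*/*p53* dKO line, by 9.06, 5.64 and 2.12 times in the fit, and *Tlr3*, *Tbk1* and *Irf3* were higher in all 3 *Nf1*/*Cdkn2a* dKO lines, by 1.42, 1.22 and 1.45 times. With the line as the replicate, no member passed an adjusted p of 0.05 in the quasi-likelihood test of edgeR (Benjamini-Hochberg over all genes), where 274 of 15207 genes (1.8%) did. Unadjusted p-values under 0.05 were reached by 4 of the 10 members (*Zbp1*, *Ddx58*, *Ifih1* and *Irf3*) and by 22.4% of all genes. The lines of both genotypes did not overlap for 6 of 10 members and for 31.4% of all genes. DESeq2 on the same 6 lines called 4 members (the same 4) and 14.3% of all genes, and limma-voom on the 18 cultures, with a random effect for the line, called 3 (*Zbp1*, *Ddx58* and *Ifih1*) and 16.6% of genes. The median log2 fold change was −0.29 over the 10 members and −0.02 over all genes. It was −1.33 over the 6 interferon-stimulated members, 5 of which had a negative value, and 0.23 over the other 4, all of which had a positive value, though that of *Tmem173* turned negative with upper-quartile scaling or with total counts.

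**Figure D1:**
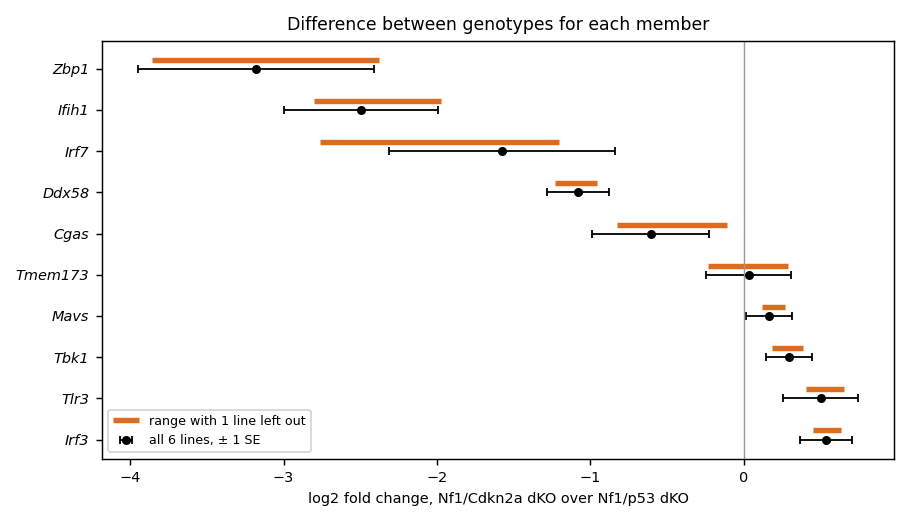
The log2 fold change of each member (horizontal axis, *Nf1*/*Cdkn2a* dKO over *Nf1*/*p53* dKO, 3 lines each) with its standard error (black), and the range of the fold change when 1 of the 6 lines is left out (orange). The fitted values run from −3.18 for *Zbp1* to 0.53 for *Irf3*, and the orange range crosses 0 for *Tmem173* alone.

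*Cgas* (chromosome 9, 78430526 to 78443237) encodes the enzyme that makes the second messenger cGAMP on binding DNA. It had 15.7, 12.9 and 31.8 CPM across the *Nf1*/*p53* dKO lines. The *Nf1*/*Cdkn2a* dKO lines had 15.9, 10.5 and 13.2 CPM. *Nf1*/*p53* dKO line 3 stood alone at the top, 1.99 times above the next line with culture ranges that do not meet, and the other 5 lines of both genotypes formed a chain of overlapping culture ranges. The means were 20.1 ± 10.2 and 13.2 ± 2.72 CPM (SD, n = 3 lines). The log2 fold change was −0.61 (standard error, SE, 0.38, adjusted p = 0.391, edgeR). Most of that difference rests on *Nf1*/*p53* dKO line 3, without which the log2 fold change of *Cgas* was −0.11.

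*Tmem173* (chromosome 18, 35733679 to 35740554), the adaptor STING that cGAMP activates, had 35.7, 33.7 and 37.9 CPM across the *Nf1*/*p53* dKO lines. Levels of *Tmem173* were 37.5, 49.3 and 23 CPM across the *Nf1*/*Cdkn2a* dKO lines. The genotypes overlapped and their means of 35.8 ± 2.12 and 36.6 ± 13.2 CPM (SD, n = 3 lines) lay close together (log2 fold change 0.03, SE 0.28, adjusted p = 0.96, edgeR). Its sign turned without *Nf1*/*Cdkn2a* dKO line 2 (−0.24) and under other scalings. Within a genotype the picture was different: the *Nf1*/*Cdkn2a* dKO lines held both the highest and the lowest *Tmem173* level of all 6 lines, 2.15 times apart, and they differed among themselves (adjusted p = 2.35e-11, edgeR quasi-likelihood F test over 3 cultures per line). The 3 *Nf1*/*p53* dKO lines lay within 1.13 times of each other and did not pass that test (adjusted p = 0.126, edgeR).

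*Zbp1* (chromosome 2, 173206612 to 173218923) encodes a sensor of Z-form DNA and RNA that can trigger necroptosis through RIPK3. It had 2.41, 2.14 and 7.33 CPM across the *Nf1*/*p53* dKO lines. Across the *Nf1*/*Cdkn2a* dKO it was at 0.369, 0.173 and 0.766 CPM. Every *Nf1*/*Cdkn2a* dKO line was lower than every *Nf1*/*p53* dKO line, and the nearest pair was 2.79 times apart with separate culture ranges. The means were 3.96 ± 2.93 and 0.436 ± 0.302 CPM (SD, n = 3 lines). *Zbp1* had the widest difference of the members, at −3.18 on the log2 scale (SE 0.77, adjusted p = 0.0849, edgeR). The counts behind it are few in the *Nf1*/*Cdkn2a* dKO, with 23, 12 and 49 reads per line and as few as 3 in a culture, and *Nf1*/*p53* dKO line 3 was 3.04 times above the next line. Without *Nf1*/*p53* dKO line 3 the *Zbp1* log2 fold change was −2.38, the smallest of the 6 values with 1 line left out, which reached −3.86.

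Among the members, the RNA sensors with lower values in the *Nf1*/*Cdkn2a* dKO were *Ddx58* and *Ifih1*, which encode RIG-I-like receptors that bind RNA in the cytosol. *Ddx58* (chromosome 4, 40203773 to 40239828), whose product RIG-I recognises RNA with a 5′ triphosphate, had 42.4, 34.3 and 45.1 CPM across the *Nf1*/*p53* dKO lines. The *Nf1*/*Cdkn2a* dKO lines had 18.6, 15.9 and 23 CPM. No line crossed over, and the lowest *Nf1*/*p53* dKO line was 1.49 times above the highest *Nf1*/*Cdkn2a* dKO line. The means were 40.6 ± 5.6 and 19.2 ± 3.6 CPM (SD, n = 3 lines). Within a genotype the highest and lowest lines were 1.31 times (*Nf1*/*p53* dKO) and 1.45 times (*Nf1*/*Cdkn2a* dKO) apart. The lines of a genotype differed among themselves (adjusted p = 0.00939 and 0.00287, edgeR F test over the cultures). Of the variance of *Ddx58* over the 6 lines, 88.6% lay between genotypes, the highest share of the 10 members. Its log2 fold change of −1.08 had an SE of 0.2 and an adjusted p of 0.0528 in edgeR, and ran from −1.23 to −0.96 with 1 line left out.

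*Ifih1* (chromosome 2, 62595798 to 62646255), whose product MDA5 binds long double-stranded RNA, had 21.9, 6.92 and 12.1 CPM across the *Nf1*/*p53* dKO lines. Levels of *Ifih1* were 1.86, 2.03 and 3.36 CPM across the *Nf1*/*Cdkn2a* dKO lines. The 3 *Nf1*/*p53* dKO lines had culture ranges that are separate from each other and from those of all *Nf1*/*Cdkn2a* dKO lines, and the nearest pair across genotypes was 2.06 times apart. With means of 13.7 ± 7.63 and 2.42 ± 0.822 CPM (SD, n = 3 lines), the *Ifih1* log2 fold change was −2.5 (SE 0.5, adjusted p = 0.0598, edgeR) and ran from −2.8 to −1.97 with 1 line left out. The order within the *Nf1*/*p53* dKO differed from that of *Cgas* and *Zbp1*, since *Ifih1* was highest in line 1 and those genes in line 3.

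*Tlr3* (chromosome 8, 45395665 to 45411080), the endosomal receptor for double-stranded RNA, was the only interferon-stimulated member whose value was higher in the *Nf1*/*Cdkn2a* dKO. It had 6.43, 5.09 and 4.62 CPM across the *Nf1*/*p53* dKO lines. Across the *Nf1*/*Cdkn2a* dKO it was at 7.27, 7.79 and 7.79 CPM. The summed lines did not overlap, but the cultures of the nearest pair did, and the log2 fold change of 0.5 (SE 0.25, adjusted p = 0.284, edgeR) did not pass the test. *Tlr3* was also the member that did not pass the test of differences among the *Nf1*/*Cdkn2a* dKO lines (adjusted p = 0.843, edgeR), whose levels lay within 1.07 times of each other.

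*Mavs* (chromosome 2, 131234063 to 131248025), the adaptor of RIG-I and MDA5, had 64, 51.5 and 54 CPM across the *Nf1*/*p53* dKO lines. The *Nf1*/*Cdkn2a* dKO lines had 66.2, 55.9 and 68 CPM. The genotypes overlapped, the highest of the 6 lines was 1.32 times above the lowest, which is the narrowest range of the 10 members, and the log2 fold change was 0.17 (SE 0.15, adjusted p = 0.558, edgeR). The lines of the genotypes were thus separate for the receptors *Ddx58* and *Ifih1* and overlapped for the adaptor that both use.

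*Tbk1* (chromosome 10, 121546455 to 121586787), the kinase on which the STING and MAVS routes meet, had 41.1, 41.3 and 43.6 CPM across the *Nf1*/*p53* dKO lines. Levels of *Tbk1* were 44.9, 49.8 and 59.4 CPM across the *Nf1*/*Cdkn2a* dKO lines. The lines did not overlap, although line 3 of the *Nf1*/*p53* dKO and line 1 of the *Nf1*/*Cdkn2a* dKO were only 1.03 times apart with overlapping cultures. The *Tbk1* log2 fold change of 0.29 (SE 0.15, adjusted p = 0.306, edgeR) did not pass the test. The *Nf1*/*p53* dKO lines lay within 1.06 times of each other, the closest of all members in that genotype, and did not pass the test of differences among lines (adjusted p = 0.621, edgeR).

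*Irf3* (chromosome 7, 44997648 to 45002848), the transcription factor that TBK1 phosphorylates, had 21.3, 20.2 and 18.1 CPM across the *Nf1*/*p53* dKO lines. Across the *Nf1*/*Cdkn2a* dKO it was at 25.1, 32.2 and 28.9 CPM. It was higher in each of the 3 *Nf1*/*Cdkn2a* dKO lines, with means of 19.9 ± 1.61 and 28.7 ± 3.58 CPM (SD, n = 3 lines), and the log2 fold change of 0.53 (SE 0.17, adjusted p = 0.137, edgeR) ran from 0.45 to 0.63 with 1 line left out. *Irf3* overlaps *Bcl2l12* on the opposite strand along 1065 bases of the gene span, and whether counting used the strand is not given, so its value is uncertain to that extent (1211 counts of *Bcl2l12* against 10033 of *Irf3* over all libraries).

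*Irf7* (chromosome 7, 141262706 to 141266481), an interferon-inducible factor that amplifies the response, had 6.79, 3.17 and 7.28 CPM across the *Nf1*/*p53* dKO lines. The *Nf1*/*Cdkn2a* dKO lines had 0.866, 0.822 and 4.08 CPM. *Nf1*/*Cdkn2a* dKO line 3 lay above *Nf1*/*p53* dKO line 2, so the genotypes overlapped, whereas the other *Nf1*/*Cdkn2a* dKO lines were below all the rest, the nearest pair 3.66 times apart. The means were 5.75 ± 2.25 and 1.92 ± 1.87 CPM (SD, n = 3 lines). The log2 fold change was −1.58 (SE 0.74, adjusted p = 0.266, edgeR). Without *Nf1*/*Cdkn2a* dKO line 3 it was −2.76. *Irf7* overlaps the more abundant *Phrf1* on the opposite strand along 45 bases of the gene span (46055 counts against 1649), and its low values are uncertain to that extent.

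**Figure D2:**
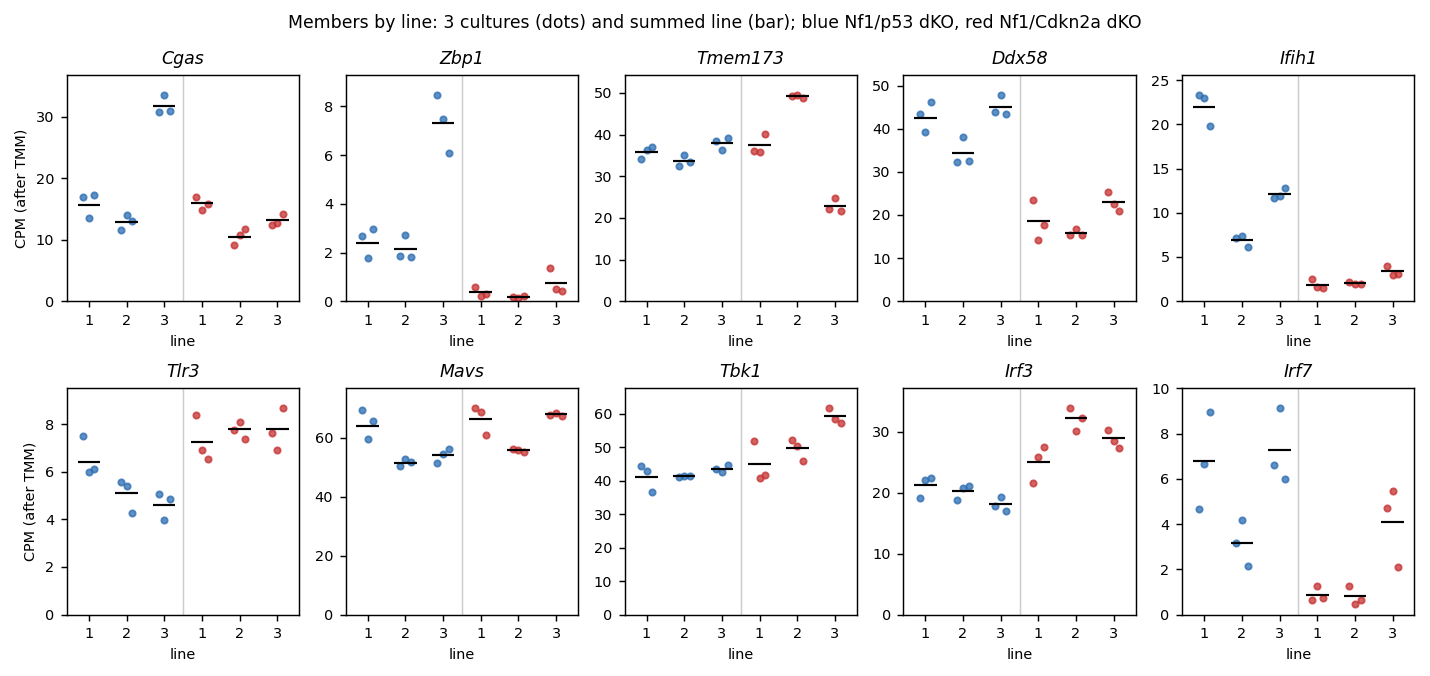
Expression of each member in CPM (vertical axes, from 0 and scaled for each gene) in lines 1 to 3 of the *Nf1*/*p53* dKO (blue) and the *Nf1*/*Cdkn2a* dKO (red), with 3 cultures per line as dots and the summed line as a bar. *Zbp1*, *Ddx58* and *Ifih1* are lower in every red line, *Tlr3*, *Tbk1* and *Irf3* are higher in every red line, and *Cgas*, *Tmem173*, *Mavs* and *Irf7* overlap.

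The members also differed between lines of the same genotype. Among the 3 *Nf1*/*p53* dKO lines, 7 of 10 members differed at an adjusted p under 0.05 in edgeR's F test over the cultures, where 73.2% of 14690 genes did. Among the 3 *Nf1*/*Cdkn2a* dKO lines, 9 of 10 members and 56.8% of genes differed. These tests compare the lines studied and not the genotypes, because the cultures of a line are not separate tumors. In the *Nf1*/*p53* dKO the members past the test included *Cgas* (adjusted p = 1.48e-10, edgeR), *Ifih1* (adjusted p = 7.12e-10, edgeR) and *Zbp1* (adjusted p = 9.06e-06, edgeR), with 2.46, 3.17 and 3.43 times between the highest and the lowest line. In the *Nf1*/*Cdkn2a* dKO the widest ranges belonged to *Irf7* (4.97 times, adjusted p = 4.96e-06, edgeR) and *Zbp1* (4.43 times, adjusted p = 0.00565, edgeR). When each member's 6 lines were put in order of level, the culture ranges were separate for 17 of the 50 neighbouring pairs and overlapped for the rest.

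Over the 6 lines, 4 of the interferon-stimulated members followed each other. The mean of the centred log2 CPM of the 6 interferon-stimulated members was 0.85, 0.21 and 1.1 over the *Nf1*/*p53* dKO lines and −0.86, −1.15 and −0.14 in the *Nf1*/*Cdkn2a* dKO lines, which puts line 2 lowest in both genotypes. Pearson's r with this mean was 0.99 for *Ddx58*, 0.97 for *Zbp1*, 0.96 for *Irf7*, 0.94 for *Ifih1* and 0.7 for *Cgas*, each of which is a part of the mean, but −0.76 for *Tlr3*, also a part of it. Among the members outside the mean it was −0.85 for *Irf3*, −0.45 for *Tbk1*, −0.27 for *Tmem173* and −0.21 for *Mavs*. Between single members, the highest r within the 6 was 0.97 (*Zbp1* and *Ddx58*), and the lowest was −0.87 (*Zbp1* and *Tlr3*), while *Irf3* had r = 0.92 with *Tlr3* and −0.92 with *Zbp1*. These coefficients describe 6 points that share the difference between genotypes and carry no test.

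**Figure D3:**
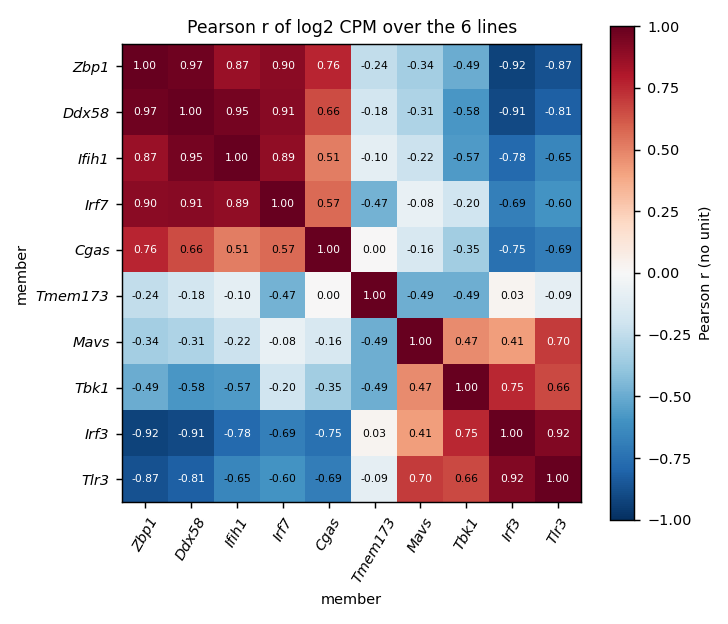
Pearson's r of log2 CPM over the 6 lines for each pair of members (rows and columns), colored from blue (−1) to red (1). *Zbp1*, *Ddx58*, *Ifih1* and *Irf7* form a block with r from 0.87 to 0.97, and *Irf3* and *Tlr3* have negative values with all of them.

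The genes outside the members with the pattern most like that mean, by r over the 6 lines among 15207 genes, were *Galnt13* (0.997), *Brip1* (0.993), *Sult2b1* (0.992), *Akna* (0.992) and *Ifi35* (0.991). *Ifi35*, an interferon-stimulated gene, had 11.6, 9.52 and 14 CPM across the *Nf1*/*p53* dKO lines against 6.69, 6.29 and 9.02 CPM. *Brip1*, which encodes a DNA repair helicase, had 26.4, 22.9 and 28.9 against 16.7, 14.9 and 19.1 CPM, and *Akna* had 8.33, 6.8 and 8.86 against 3.82, 3.2 and 5.1 CPM. *Galnt13* had 3.02, 0.495 and 7.04 against 0.0481, 0.0144 and 0.219 CPM, and *Sult2b1* had 0.528, 0.269 and 0.512 against 0.0802, 0.0721 and 0.172 CPM. The r of both thus rests on few reads in the *Nf1*/*Cdkn2a* dKO. Over the 18 cultures in place of the 6 lines, r was 0.866 for *Galnt13*, 0.96 for *Brip1*, 0.727 for *Sult2b1*, 0.916 for *Akna* and 0.851 for *Ifi35*. An r above 0.9 was reached by 519 of 15207 genes. Of 20 interferon-stimulated genes outside the sensors, 16 were above 0.9, with a median r of 0.95 against 0.02 over all genes. The direction of that list was known from these libraries and the mean itself separates the genotypes, so its high r values are no independent test of a shared pattern.

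The interferon genes were near or below detection. Of 21 type I, II and III interferon genes, 12 had no count in any line, and the highest count in any line was 7 reads. *Ifnb1* (chromosome 4, 88522025 to 88522774), the interferon gene that IRF3 is best known to switch on, had 1 read in *Nf1*/*p53* dKO line 3 and none in the other 5 lines. More than 3 reads in any line were seen for *Ifna13* (0, 5 and 3 reads over the *Nf1*/*p53* dKO lines and 7, 4 and 6 reads over the *Nf1*/*Cdkn2a* dKO lines), *Ifne* (6, 5 and 1, and 3, 1 and 4) and *Ifna2* (6 reads in *Nf1*/*Cdkn2a* dKO line 3 only). A count of 0 allows up to 3 counts, so that differences in interferon transcripts between the genotypes were not detectable at this depth, and such reads can be shared between near-identical interferon genes.

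The rest of the route was described from 4 lists of pathway genes and 1 of interferon-stimulated genes outside the sensors. Of 22 other nucleic acid receptors, 16 were tested and none was called (1.8% of all genes were). At an unadjusted p under 0.05, 2 were higher and 4 lower (22.4% of all genes passed it), and the median log2 fold change was −0.19. The lowest value was that of *Nod2*, a sensor of bacterial peptidoglycan also reported to bind viral RNA, with 54, 47 and 426 reads against 3, 0 and 0. Most of the *Nod2* reads were in *Nf1*/*p53* dKO line 3.

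Of 26 cofactors and signalling partners, all tested, none was called, 3 were higher and 3 lower at an unadjusted p under 0.05 (22.4% of all genes), and the median log2 fold change was 0.18. The highest was *Ikbke*, the kinase most closely related to *Tbk1*, with 6.14, 3.37 and 1.74 CPM across the *Nf1*/*p53* dKO lines against 8.49, 13.5 and 8.38 CPM (log2 fold change 1.43), which is the same sign as for *Tbk1*. The lowest was *Irf5*, a transcription factor of the Irf family, with 1.17, 10.4 and 3.02 against 1.94, 0.462 and 0.594 CPM, which overlap.

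Among nucleases and restraints on sensing, 19 of 20 genes were tested and 1 was called (1.8% of all genes were). At an unadjusted p under 0.05, 2 were higher and 5 lower (22.4% of all genes passed it), and the median log2 fold change was −0.05. *Samhd1*, a dNTP hydrolase whose loss sets off nucleic acid sensing, fell from 101, 93.9 and 108 CPM across the *Nf1*/*p53* dKO lines to 57, 57.3 and 65.9 CPM across the *Nf1*/*Cdkn2a* dKO lines (log2 fold change −0.75, adjusted p = 0.0496, edgeR). That call was lost with any 1 line left out (adjusted p = 0.0763 to 0.168, edgeR), and the values stayed between −0.82 and −0.69. The lowest of this list was *Enpp1*, which degrades extracellular cGAMP, with 33, 80.8 and 30 against 13.1, 1.99 and 9.56 CPM (log2 fold change −2.55), and the highest was *Tnfaip3*, which encodes A20, with 9.07, 12.3 and 7.96 against 13.6, 27 and 12.7 CPM (0.86). Neither was called, and *Trex1*, the nuclease that removes cytosolic DNA, was listed at 0 in every line. Whether its reads were assigned to another gene cannot be told from the counts, so that 0 does not show that *Trex1* was not expressed.

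The interferon receptor pathway had 13 of 14 genes tested and none called (1.8% of all genes were). It had 1 gene higher and 0 lower at an unadjusted p under 0.05 (22.4% of all genes passed it), and a median log2 fold change of 0.07. Its highest value was that of *Jak2*, with 69.5, 68.8 and 55.2 against 136, 96.1 and 191 CPM (log2 fold change 1.13), and its lowest that of *Usp18*, an inhibitor of interferon signalling, with 2.85, 2.11 and 2.88 against 0.465, 0.62 and 2.82 CPM (−1.01). As for *Irf7*, *Usp18* in *Nf1*/*Cdkn2a* dKO line 3 reached the *Nf1*/*p53* dKO levels. The 20 interferon-stimulated genes outside the sensors, a list whose direction was known from these libraries, were all lower in value with no overlap between the lines (31.4% of all genes did not overlap), with a median log2 fold change of −2.96. Of these, *Cxcl10* (21.5, 11.2 and 20.9 against 1.09, 1.1 and 1.28 CPM, adjusted p = 0.0189, edgeR) and *Oasl2* (15.2, 6.92 and 15.1 against 0.738, 0.447 and 1.67 CPM, adjusted p = 0.0465, edgeR) fell. Without single lines the adjusted p of *Cxcl10* was 0.0253 to 0.0947 and passed only when the line left out was an *Nf1*/*p53* dKO line, and that of *Oasl2* was 0.0703 to 0.151. Their mildest value was that of *Ifi35* (−0.68) and their lowest that of *Cmpk2*, with 159, 45 and 289 reads against 0, 0 and 7. An ISRE core was found in the promoters of 7 of 14 genes of this list with a RefSeq promoter given, in 5 of 17 other receptors, in 2 of 23 cofactors, in 0 of 15 restraints and in 2 of 11 genes of the receptor pathway, against 2 of 8 members.

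**Figure D4:**
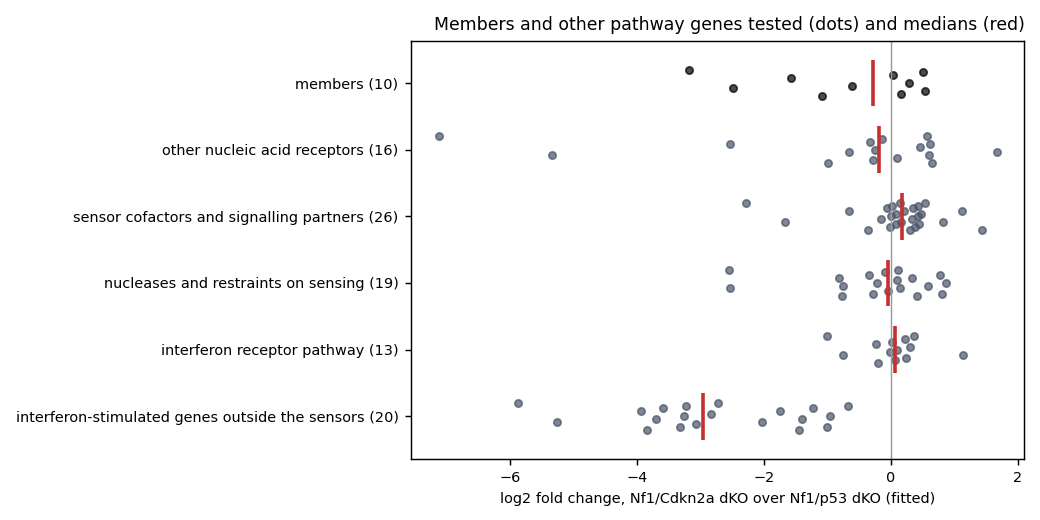
The fitted log2 fold change (horizontal axis, *Nf1*/*Cdkn2a* dKO over *Nf1*/*p53* dKO) of the 10 members and of every tested gene in 5 lists, with the median of each in red and the number of genes in parentheses. The medians of the pathway lists lie near 0, that of the members at −0.29 and that of the interferon-stimulated genes at −2.96. The members' median joins −1.33 for the 6 interferon-stimulated members and 0.23 for the other 4, which are not drawn apart. The leftmost dots belong to genes with few or no reads in the *Nf1*/*Cdkn2a* dKO, whose fitted value is no bound.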

How the data were processed

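Library preparation, sequencing and read processing were done by a company. The table that the authors deposited holds raw read counts per gene, not normalized. The submitters' processing notes list CASAVA, STAR 2.5, DESeq2 1.14.1 and the builds GRCm38 and mm10 without their roles. The counting tool, its strand setting and the annotation are not given in the sources used here. Library totals were 19560535 to 28312207 counts. The limit that a count of 0 allows (3 counts) covers counting error only.

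Genotype, line and culture came from the sample titles. Chi-square tests put every pair of cultures beyond sampling noise. The 3 cultures of each line were added up, filtered (filterByExpr, with at least 10 counts and a total of 15), TMM-scaled, and tested between genotypes by the two-sided quasi-likelihood test of edgeR with p-values adjusted by Benjamini-Hochberg over all genes (edgeR 4.0.16, limma 3.58.1, DESeq2 1.42.0, R 4.3.3, Python 3.11.15). Differences among lines of a genotype were tested with edgeR's F test on the 18 cultures. Each line comes from a separate tumor, and cultures of a line are repeats of it. Log2 CPM values were correlated without a test. Gene positions and exon lengths came from GENCODE M21 (GRCm38), in which 34490 of the 35275 listed IDs were found, and promoters from RefSeq (GRCm38.p6).

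The members, the gene lists and the tests were chosen with earlier results of these data known. Named genes are the members, the targeted genes, the genes called in each list and its highest and lowest fitted values, interferon genes with more than 3 counts in a line, and the 5 genes most like the mean of the 6 interferon-stimulated members. Some single-gene results that this rule would name are not reported here. The alternatives were other units of replication, tools, scalings, filters, replicate blocks and each line left out in turn. The steps were tested on simulated data.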

Additional observations from a re-analysis of the deposited data

Results flagged for a closer look

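Of the 20 groups of 9 cultures examined (10 members in 2 genotypes), 1 held a culture set apart from the others. For *Tbk1* in the *Nf1*/*p53* dKO, the lowest culture, with 36.7 CPM in line 1, was separated from the next by 0.59 of the range of the group on the log2 scale, above Dixon's critical value at 95% for 9 values. The other 8 cultures lay between 41.2 and 44.7 CPM. Chance sets apart about 1 in 20 such groups.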

How the results depend on the processing

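Over 17 alternatives to the genotype comparison, the log2 fold changes of all members but *Tmem173* kept their sign. That of *Tmem173* was −0.039 with limma-voom and the line as a random effect, −0.011 with upper-quartile scaling, −0.099 with total counts, −0.033 with the line number as a block and −0.236 to 0.285 with 1 line left out, and that of *Cdkn2a* −0.18 to 0.81 with 1 line left out. The counts called were, in the order of all genes, members, other pathway genes and interferon-stimulated genes outside the sensors, 274, 0, 1 and 2 in the reported fit. They were 6096, 8, 34 and 16 with the 18 cultures as separate samples in edgeR (46.5% of 13110 genes) and 6409, 8, 36 and 16 in DESeq2 (48.9%). With limma-voom they were 2173, 3, 14 and 12 (16.6% of 13110 genes). With DESeq2 on the 6 lines they were 2171, 4, 15 and 18 (14.3% of 15207 genes). They were 423, 1, 2 and 6 with total counts (2.78% of 15207 genes), where the median of all genes moved from −0.02 to −0.16. Upper-quartile scaling called 1 member (*Ddx58*) and 4 interferon-stimulated genes, with 320 of 15207 genes (2.1%) called. No filter called 1 member (*Ifih1*) and 6 interferon-stimulated genes, with 411 of 23859 genes (1.72%) called. With 1 line left out, 0 to 172 genes, 0 members, 0 pathway genes and 0 to 1 interferon-stimulated genes were called, and the median of the members was −0.413 to −0.013, with the value nearest 0 without *Nf1*/*p53* dKO line 3. The cause of these shifts was not tested.

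Line numbers do not pair the samples (r of same-numbered deviations −0.10, −0.13 and −0.09). The line number as a replicate block called 0 genes, 0 members, 0 pathway genes and 0 interferon-stimulated genes. The culture number as a replicate block on the 18 cultures called 5681 of 13110 genes (43.3%), 8 members, 33 pathway genes and 16 interferon-stimulated genes. Counts of members that differed among lines ran from 5 to 7 in the *Nf1*/*p53* dKO, where 9220 to 11256 of all genes did. In the *Nf1*/*Cdkn2a* dKO they ran from 7 to 9, where 6569 to 8494 of all genes did. The median r between the interferon-stimulated and the other members was −0.28 and became 0.003 with total counts. Read depth limits what can be said of the interferon genes, and *Zbp1*, *Nod2*, *Cmpk2*, *Galnt13* and *Sult2b1* had few reads in the *Nf1*/*Cdkn2a* dKO.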
